A study of Homo sapiens with 19 samples.

Results

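The sites described here are the regions where the orphan nuclear receptor ERRα was called on chromatin of BT-474 breast cancer cells treated with EGF, but not on that of cells given vehicle or heregulin (HRG). They were chosen by their peak calls. Peaks of the vehicle, EGF and HRG lists were joined into 1 site wherever they shared 1 bp or more, also in chains, and the EGF-only sites are those with an EGF peak and neither a vehicle nor an HRG peak. There were 4295 EGF-only sites among the 51247 merged BT-474 sites (8.38%) and among the 26318 sites of the EGF list (16.3%, interval 15.9–16.8%), and each held 1 EGF peak. The presence of the EGF peak and the absence of the other peaks selected the sites. The EGF score decides whether a peak is called, so it is given as a description too. The number depends on the calling threshold, and was 1231 with P at most 1e-08 and 723 with P at most 1e-10 in all 3 lists. Their sequence, their position and their peaks in other cells were not used in the choice.

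ERRα binds DNA as an orphan nuclear receptor at the ERR response element (ERRE), and is best known for driving genes of mitochondrial energy metabolism together with PGC-1 coactivators. EGF signals through its receptor EGFR and HRG through ERBB3 and ERBB4, and the activated receptors pair with ERBB2, whose gene is amplified in BT-474, a luminal breast carcinoma line. AP-1, a dimer of FOS and JUN family proteins, is a classic nuclear end point of such signalling.

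The study profiled ERRα by chromatin immunoprecipitation and sequencing (ChIP-seq) in 2 ERBB2-amplified lines, BT-474 and SKBr3, and in SKBr3 derivatives that were kept as parental cells (pSKBr3) or selected for resistance to lapatinib (LRSKBr3). BT-474 and SKBr3 cells were held without serum for 24 h and then received 100 μM EGF, 100 μM HRG or vehicle for 90 min, as the labels state the dose. The BT-474 lists rest on 1 ChIP library each and share 1 input library, which came from vehicle-treated cells. Each list of SKBr3 and its derivatives was made from 2 ChIP libraries pooled and an input of its own, pSKBr3 being untreated and LRSKBr3 grown in 2 μM lapatinib. The lists held 32259 peaks for vehicle, 26832 for EGF and 41271 for HRG in BT-474, and 22539 to 39777 peaks in the SKBr3-derived cells. They hold no read counts, so the depth behind them is unknown. With 1 list per condition, no treatment effect could be tested, no P value is given, and all intervals are 95% Wilson intervals (for differences, Newcombe intervals) that cover counting error alone. Sites are not replicates of a treatment.

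The ERRE is shown first, because it is the element that the receptor itself recognises. It was sought as the word TCAAGGTCA on either strand within 100 bp of the centre of the EGF peak. The 6 EGF-only sites of highest score that hold it, leaving out chromosomes 8 and Y, are printed below as the plus strand of GRCh37 with 20 bases to each side, named by the nearest protein-coding gene. Capitals mark the word, which reads TGACCTTGA where it lies on the minus strand. The CNTN4 sequence holds another copy that overlaps the marked word, and the rest of that copy is in lower case.
ETV1, chr7:14163073-14163121: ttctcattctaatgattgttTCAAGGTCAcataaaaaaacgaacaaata
CHCHD3, chr7:132701783-132701831: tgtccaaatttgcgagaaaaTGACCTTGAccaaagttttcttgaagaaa
MAGI2, chr7:78964698-78964746: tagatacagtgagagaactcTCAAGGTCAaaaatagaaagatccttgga
LRP1B, chr2:141224332-141224380: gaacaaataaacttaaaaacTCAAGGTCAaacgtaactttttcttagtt
CNTN4, chr3:2164949-2164997: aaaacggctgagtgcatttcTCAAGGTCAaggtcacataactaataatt
CCNL1, chr3:156942777-156942825: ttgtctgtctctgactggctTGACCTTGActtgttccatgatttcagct

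The word lies 14 to 95 bp from the peak centre in these 6 sites. The CHCHD3, MAGI2, LRP1B and CNTN4 sites are intronic and the ETV1 and CCNL1 sites lie outside protein-coding genes. ETV1 encodes an ETS transcription factor, CHCHD3 a protein of the mitochondrial inner membrane that organises the cristae, and CCNL1 a cyclin linked to pre-mRNA splicing. The site near ETV1 had a score of 140.8 in the BT-474 EGF list and also a peak in the SKBr3 vehicle list (score 89.5) and the SKBr3 EGF list (score 81.7). The MAGI2 site had an SKBr3 vehicle peak (score 72.0), and the CNTN4 site had one too (score 71.9) together with an LRSKBr3 peak (score 53.2). The CHCHD3, LRP1B and CCNL1 sites had no peak in any SKBr3-derived list, and the CHCHD3 site lay 740 bp from a BT-474 HRG peak.

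AP-1 was sought in the same windows as TGACTCA, which reads TGAGTCA on the opposite strand. The 4 EGF-only sites of highest score with this word, again leaving out chromosomes 8 and Y, are shown in the same way, because AP-1 is a classic end point of growth factor signalling.
ENSG00000283321, chr7:17561191-17561237: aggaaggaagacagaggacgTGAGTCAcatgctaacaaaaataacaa
XDH, chr2:31676816-31676862: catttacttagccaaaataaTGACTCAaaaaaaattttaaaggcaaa
RYK, chr3:133968158-133968204: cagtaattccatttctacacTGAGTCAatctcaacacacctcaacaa
NOD1, chr7:30443217-30443263: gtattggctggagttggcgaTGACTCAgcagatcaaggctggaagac

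The site nearest to ENSG00000283321 had a score of 157.3 in the BT-474 EGF list and peaks in the SKBr3 vehicle (195.6) and SKBr3 EGF (221.6) lists, and lay 214 bp from a BT-474 HRG peak. The RYK site lies in an intron of that gene, which encodes a WNT-binding member of the receptor tyrosine kinase family, 1365 bp from a transcript start. It had a score of 136.2 in the BT-474 EGF list and peaks in the SKBr3 EGF (98.7), SKBr3 HRG (252.4) and LRSKBr3 (96.5) lists. The site whose nearest gene is NOD1, an intracellular sensor of bacterial peptidoglycan, had a peak in all 5 SKBr3-derived lists, with scores between 58.7 and 175.3. The site near XDH, the gene of xanthine dehydrogenase, had none.

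Most EGF-only sites contained neither word, and many of them were rich in A and T. The central 201 bp of the site near OTOL1, the gene of an inner ear collagen-like protein, is given as an example. At 22.9% G and C, it lies below the 5th percentile of EGF-only sites (23.9%, median 32.3%). It lies outside genes and is the eighth strongest EGF-only site. Capitals are absent because it contains neither word.
OTOL1, chr3:162912709-162912909: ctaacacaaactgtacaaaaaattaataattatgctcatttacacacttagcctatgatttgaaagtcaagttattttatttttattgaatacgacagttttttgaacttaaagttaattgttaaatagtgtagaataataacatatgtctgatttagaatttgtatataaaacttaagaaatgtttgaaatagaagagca

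EGF-only sites were the weaker peaks of their list. The peak score of MACS (−10 log10 of P) had a median of 61.9 at EGF-only sites (quartiles 54.7 and 75.9, highest 678.5), with the calling threshold at 50. The other 22023 sites of the EGF list had a median of 152.6. Of the EGF-only sites, 1917 scored below 60, 362 reached 100, 173 lay above the median of the EGF list and 7 lay above its 75th percentile. In the lowest 10 percentiles of the EGF list, 48.0% of the sites were EGF-only. This share was 12.05% between the 40th and 50th percentiles, 0.265% between the 70th and 80th, and 0 of 2665 sites in the top 10 percentiles (upper limit 0.144%).

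**Figure D1:**
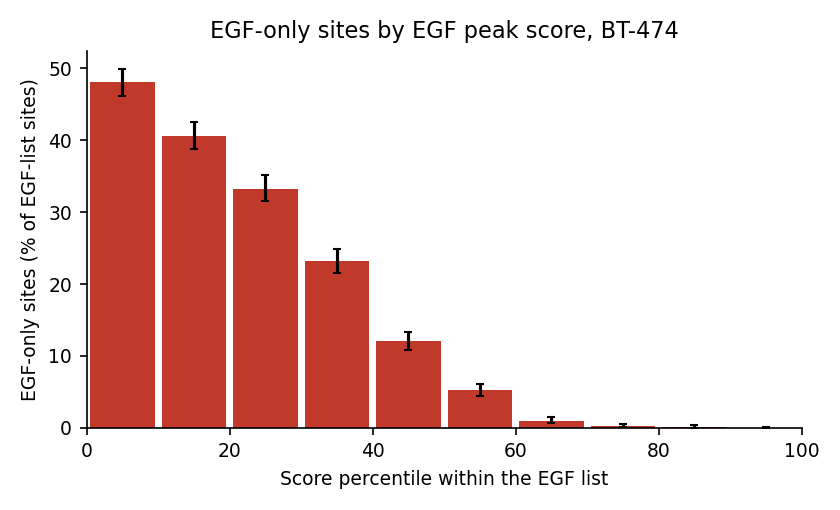
Share of EGF-list sites in BT-474 that were EGF-only (y axis, %) by score percentile within the EGF list (x axis, 10 percentiles per bar), with 95% Wilson intervals. The share was 48.0% among the weakest sites and 0.113% between the 80th and 90th percentiles.

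By the rule, no EGF-only site overlaps a vehicle or HRG peak. The gaps to those peaks are a description, without a background of other sites beside them. Where an overlap of 50% of both peaks was required to count as shared, the number of EGF-only sites was 5226. The median gap from an EGF-only site to the nearest vehicle peak was 37193 bp, and to the nearest HRG peak 24285 bp. Within 100 bp of a vehicle or HRG peak lay 30 EGF-only sites, while 213 lay within 1 kb and 1303 within 10 kb. The member closest to the limit, nearest to NAALADL2 on chromosome 3 (175399609–175402604, score 81.7), abutted a vehicle peak with a gap of 0 bp, and a member in the region of PARD3 on chromosome 10 (35152896–35153982, score 50.3) lay 6 bp from an HRG peak. Just outside the limit, an EGF peak on chromosome 16 (65231623–65232802, score 57.4) was left out for an overlap of 2 bp, and 11 of the 26832 EGF peaks shared no more than 100 bp with a vehicle or HRG peak.

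The 8 strongest EGF-only sites comprised 5 intronic and 3 intergenic regions. The highest score, 678.5, belonged to a 4189 bp site in an intron of SDCCAG8, which encodes a centrosomal protein (chromosome 1, 243497948–243502136). This site was also called in all 5 SKBr3-derived lists, with scores of 265.5 on SKBr3 vehicle, 319.9 on SKBr3 EGF, 339.9 on SKBr3 HRG, 138.8 in pSKBr3 and 429.7 in LRSKBr3. It was therefore EGF-only in BT-474 and present under every SKBr3 condition.

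The next 2 sites showed the same pattern. The region 4808 bp upstream of ACSF2, an acyl-CoA synthetase gene (chromosome 17, 48493678–48503864), had a BT-474 EGF score of 449.0 and SKBr3 scores of 689.1 on vehicle, 117.3 on EGF and 138.1 on HRG. The site in an intron of RIMS4, a gene of synaptic vesicle exocytosis (chromosome 20, 43396874–43400774), had a BT-474 EGF score of 382.0 and scores of 1208.9 in pSKBr3 and 2865.0 on SKBr3 EGF. The nearest vehicle peak of BT-474 was 374085 bp away.

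The other 5 of the 8 had no peak in any SKBr3-derived list. They were the intronic sites in CSMD3 (score 373.7) and SNTG1 (356.1), the intergenic sites nearest to EFNA5 (350.7) and OTOL1 (272.8), and a site at a start of UBE2V1 (337.2). CSMD3 encodes a large membrane protein of the nervous system and SNTG1 a syntrophin, while EFNA5 encodes an ephrin, a cell-bound ligand of EPH receptors. The site nearest to EFNA5 is 1891061 bp from its start, so the gene name only marks a position.

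EGF-only sites had low GC content. Within 100 bp of the centre it was 33.2% ± 6.86 (SD, n = 4295 sites), against 41.6% ± 8.68 at the other sites of the EGF list (n = 22023), 37.3% ± 7.85 at HRG-only sites (n = 13007) and 40.8% ± 8.99 at all other BT-474 sites (n = 46952). Of the EGF-only sites, 83.4% (interval 82.3–84.5%) lay below the median of all other BT-474 sites, which was 39.8%. A GC content below 30% was found at 35.2% (33.8–36.6%) of EGF-only sites, 17.6% (17.0–18.3%) of HRG-only sites and 7.23% (6.89–7.58%) of the other EGF-list sites.

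The GC content fell towards the peak centre. It averaged 38.2% at 2000 bp upstream, 36.9% at 1000 bp, 35.05% at 500 bp and 33.2% at the centre of EGF-only sites. HRG-only sites fell from 40.2% to 37.3% over the same distance, whereas sites called in all 3 lists stood at 42.6% and 42.2% and vehicle-only sites at 43.4% and 43.9%. Stretches of at least 20 consecutive A or T were at 6.45% (5.75–7.22%) of EGF-only sites, 4.03% (3.70–4.38%) of HRG-only sites and 2.66% (2.45–2.88%) of the other EGF-list sites. Runs of 10 A or 10 T were about as frequent at EGF-only sites (5.01%, 4.39–5.70%) as at HRG-only sites (4.57%, 4.23–4.95%), with overlapping intervals.

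**Figure D2:**
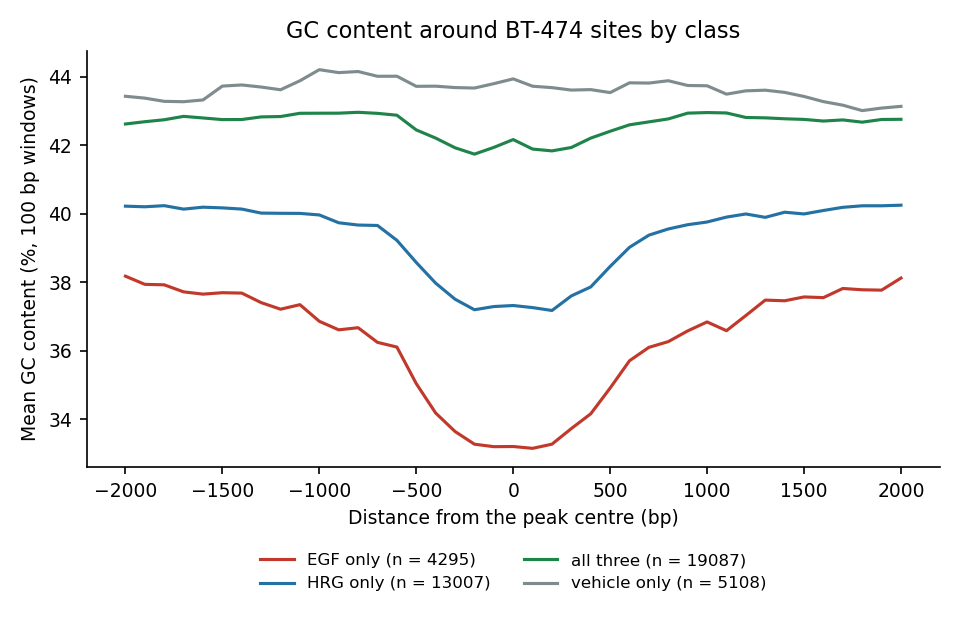
Mean GC content (y axis, %, windows of 100 bp) by distance from the peak centre (x axis, bp) for 4 classes of BT-474 sites. The line of the 4295 EGF-only sites is the lowest at every distance and falls from 38.2% at 2000 bp upstream to 33.2% at the centre.

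The ERRE word was at 90 of the 4295 EGF-only sites (2.10%, interval 1.71–2.57%), against 5.49% of all BT-474 sites, and at 1.10% of the 362 sites whose EGF peak had P at most 1e-10. The share was 4.34% at HRG-only sites, a difference of −2.24 percentage points (interval −2.77 to −1.66), and 7.31% at the other sites of the EGF list, a difference of −5.22 points (−5.74 to −4.63). The EGF-only sites still held the word more often than windows 2 kb to either side of them, where it was at 0.291% (0.197–0.429%). Per Mb of sequence searched there were 116 ERRE words within 50 bp of the centre of EGF-only sites, 95.5 between 100 and 200 bp and 14.0 between 900 and 1000 bp. The corresponding values at the other EGF-list sites were 445, 201 and 22.5. The word was thus concentrated at the centre of EGF-only sites, at a lower density than at the rest of the list. The shorter word AAGGTCA gave the same order, with 8.13% of EGF-only sites and 24.98% of the other EGF-list sites.

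The AP-1 word was at 144 EGF-only sites (3.35%, 2.85–3.93%), against 6.69% of all BT-474 sites. The share was 8.62% at HRG-only sites, a difference of −5.27 points (−5.97 to −4.52), and 6.89% at the other EGF-list sites, a difference of −3.54 points (−4.14 to −2.87). Vehicle-only sites had a share of 3.09% (2.65–3.604%), with an interval that overlapped that of EGF-only sites. The interval at EGF-only sites also overlapped that of their own flanks (2.81%, 2.48–3.18%), as did that of vehicle-only sites with theirs (3.09%, 2.77–3.45%). Its density was 179 words per Mb within 50 bp of the centre and 139 between 900 and 1000 bp, against 376 and 180 at the other EGF-list sites. Both words were at 5 EGF-only sites, so that AP-1 was at 5.56% (2.40–12.4%) of the sites with the ERRE and 3.31% of those without, with overlapping intervals.

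**Figure D3:**
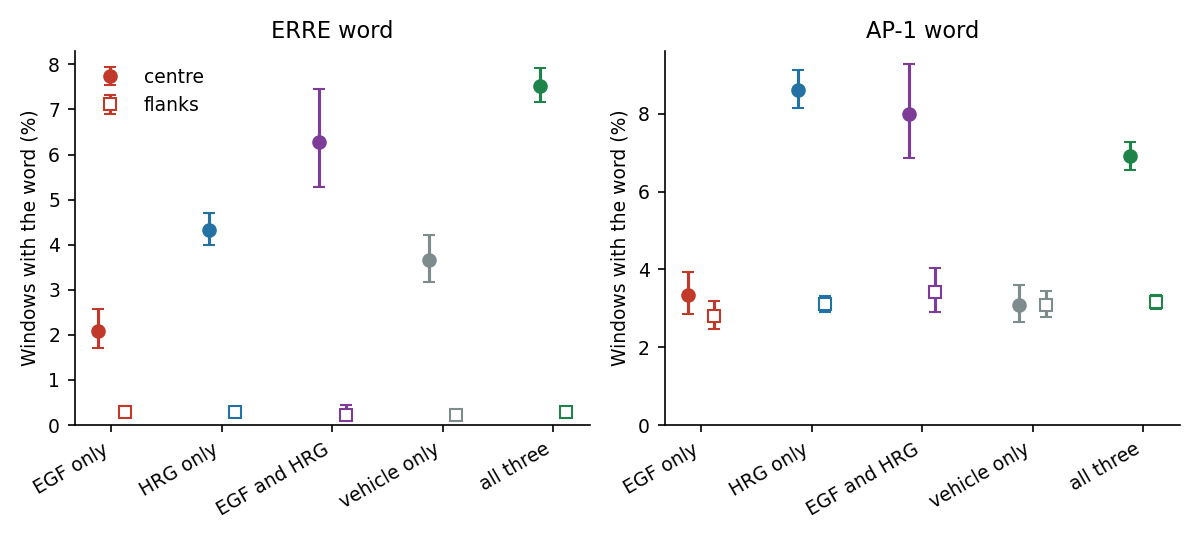
Share of sites (y axis, %) with the ERRE word (left) and the AP-1 word (right) within 100 bp of the peak centre (filled circles) and in flanking windows 2 kb away (open squares), by class of BT-474 site, with 95% Wilson intervals. The EGF-only sites stand at 2.10% for the ERRE, and their AP-1 share of 3.35% overlaps that of their flanks.

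Words of other factors were counted in the same windows, on both strands. The FOXA words TGTTTAC and TATTTAC, which are recognised by forkhead pioneer factors, were at 12.8% (11.9–13.9%) of EGF-only sites and 8.91% of their flanks, against 14.0% of all BT-474 sites. The GATA word AGATAA was at 21.6% (20.4–22.9%), against 17.3% of flanks and 19.2% of all sites, and the TEAD word GGAATG at 9.08% against 9.95% of flanks and 12.1% of all sites. The part of base composition in these shares was not tested. The GC box GGGCGG was rare at EGF-only sites (0.442%, with 1.85% of flanks and 3.01% of all sites). The ETS word CCGGAAG was at 0.303%, against 0.763% of all sites, the GRHL words AACCGGTT and AACCTGTT at 0.745%, against 1.32%, and the CTCF words CCACTAGGG and CCACCAGGG at 0.0698%, against 0.263%. The cyclic AMP response element TGACGTCA and the NRF1 word GCGCATGCG were at 0 of the 4295 sites (upper limit of the Wilson interval 0.0894%), and at 0.0546% and 0.0449% of all sites, so a difference was not detectable with this number of sites.

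EGF-only sites of BT-474 were seldom sites of the SKBr3 cells. Of the 4295 sites, 246 (5.73%, interval 5.07–6.46%) overlapped a peak of the SKBr3 EGF list, against 35.4% of all BT-474 sites. The share was 20.8% at HRG-only sites, a difference of −15.0 points (−16.0 to −14.0), and 52.3% at the other EGF-list sites. The SKBr3 list of the same treatment did not stand out, since 280 sites (6.52%, 5.82–7.30%) overlapped an SKBr3 vehicle peak, 209 (4.87%, 4.26–5.55%) an SKBr3 HRG peak and 267 (6.22%, 5.53–6.98%) an LRSKBr3 peak, all with intervals that overlap that of SKBr3 EGF. The same sites were scored against every list, so overlap of these separate intervals does not decide whether the lists differ. The pSKBr3 list had 125 of the sites (2.91%, 2.45–3.46%). Of all BT-474 sites, 33.6% overlapped an SKBr3 vehicle peak, 32.5% an SKBr3 HRG peak, 36.96% an LRSKBr3 peak and 24.3% a pSKBr3 peak. In none of the 5 lists lay 3770 of the EGF-only sites (87.8%, against 50.7% of all BT-474 sites), and 57 lay in all 5 (1.33%, against 17.7%).

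**Figure D4:**
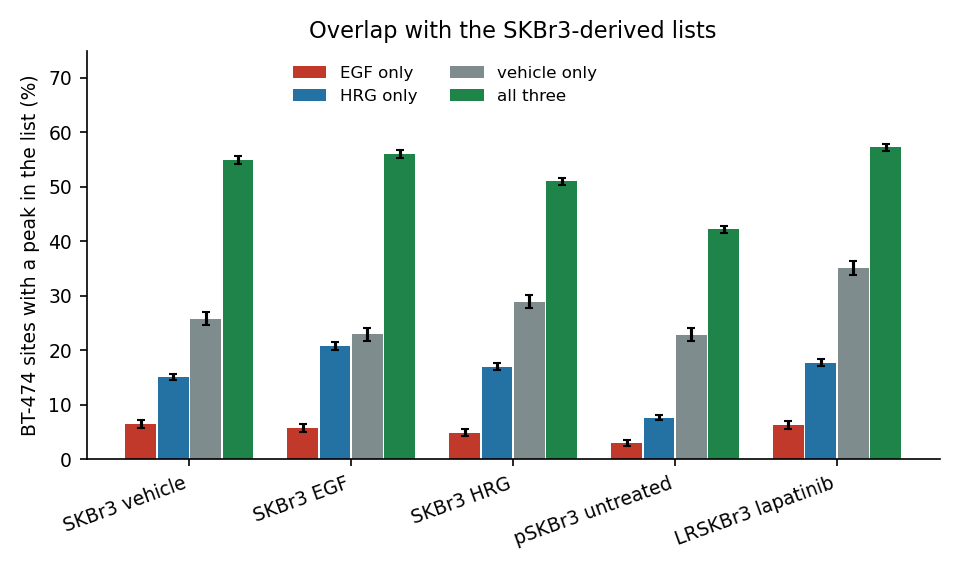
Share of BT-474 sites (y axis, %) that overlap a peak of each SKBr3-derived list (x axis), for EGF-only, HRG-only, vehicle-only and all-3-list sites, with 95% Wilson intervals. EGF-only sites are lowest in each list, between 2.91% in pSKBr3 and 6.52% in SKBr3 vehicle.

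Among the 453 EGF-only sites with a peak in at least 1 of the 3 SKBr3 treatment lists, 63 (13.9%, 11.0–17.4%) were EGF-only in SKBr3 as well. Vehicle-only was the most frequent pattern with 111 sites (24.5%), followed by all 3 treatments with 88, HRG only with 85, vehicle and EGF with 70, EGF and HRG with 25, and vehicle and HRG with 11. Of all BT-474 sites with such a peak, 7.52% (7.19–7.87%) were EGF-only in SKBr3, 9.15% vehicle-only and 50.5% in all 3 lists. The EGF-only pattern in SKBr3 was at 5.29% (4.93–5.68%) of the other EGF-list sites with such a peak and at 16.8% (15.6–18.05%) of the HRG-only sites. Its share at EGF-only sites was thus higher than at the other EGF-list sites, with an interval that overlapped that of HRG-only sites. The SKBr3 peaks at EGF-only sites were weaker than those at all other BT-474 sites together. The median score percentile of the SKBr3 EGF peaks was 33.2 at EGF-only sites (n = 246), 49.0 at HRG-only sites (n = 2699) and 71.3 at the other EGF-list sites (n = 11526). Of the 246, 24 lay above the 75th percentile of that list. For the pSKBr3 peaks, the median percentile was 46.0 at EGF-only sites and 44.9 at HRG-only sites.

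The 8 strongest sites that were EGF-only in both lines had SKBr3 EGF scores between 51.9 and 201.2. The highest of these scores belonged to an intronic site in ZFP91, a zinc finger gene linked to NF-κB signalling (chromosome 11, 58349360–58354113, BT-474 score 123.5), 710 bp from a BT-474 vehicle peak. The strongest in BT-474 (150.3) was a site in an intron of MRPS35, which encodes a protein of the mitochondrial ribosome (chromosome 12, 27901562–27903509, SKBr3 EGF score 61.6). The others were nearest to KCND2, CDH18, VSTM2A, UTRN, LRFN5 and BTBD3, and lay 25319 to 938793 bp from a gene start. The VSTM2A site lay 60 bp from a BT-474 HRG peak. The UTRN site was the only one of the 8 with a peak in a further list (pSKBr3, 61.2), and the LRFN5 site the only one with an AP-1 word. None of the 8 held an ERRE.

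GC content and score moved with these differences, and the shares were therefore also taken within strata. Below 25% GC, 2.01% of the EGF-only sites had an SKBr3 EGF peak, against 22.1% of the other EGF-list sites. Between 30 and 35% GC the shares were 3.44% (2.58–4.57%) and 33.8% (32.3–35.4%), and at 45% GC or more 28.2% (23.1–33.9%) and 71.3% (70.2–72.4%). Between 25 and 30% GC the share at EGF-only sites was 1.62% (1.03–2.54%). The intervals of both kinds of site were apart in each of the 6 GC groups. The ERRE was at 1.76% (1.17–2.62%) of EGF-only and 6.47% (5.71–7.33%) of other sites between 30 and 35% GC, but at 6.77% (4.32–10.4%) and 6.95% (6.37–7.57%) at 45% GC or more. At the 266 EGF-only sites of highest GC content, a lower ERRE share was thus not detected. Below 25% GC the ERRE intervals overlapped too (0 of 399 and 3 of 258 sites), and they were apart in the other 4 groups. For AP-1 the shares were 3.89% (2.97–5.08%) and 5.15% (4.46–5.92%) between 30 and 35% GC, and 5.64% (3.45–9.09%) and 7.87% (7.26–8.53%) at 45% or more, with overlapping intervals in both. The intervals also overlapped below 25% GC (1.00% and 2.71%), between 25 and 30% (2.70% and 3.67%) and between 40 and 45% (4.99% and 7.83%). Between 35 and 40% GC, the remaining 1 of the 6 groups, the shares were 3.03% (2.06–4.43%) and 6.94% (6.28–7.67%), with intervals that did not overlap. The AP-1 share was lower at EGF-only sites in all 6 groups, and overlapping intervals do not show that shares are equal.

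Up to the 25th percentile of EGF scores, which held 2785 EGF-only and 3779 other sites, 5.24% and 36.9% had an SKBr3 EGF peak. The ERRE was at 2.05% (1.58–2.64%) and 6.72% (5.97–7.56%) of these sites, and AP-1 at 3.34% (2.73–4.07%) and 7.17% (6.39–8.04%). GC content differed within this range as well, with means of 33.3% ± 6.88 and 40.8% ± 8.67 (SD over sites). Between the 25th and 50th percentiles, the intervals of each of these 3 shares were apart. Between the 50th and 75th percentiles, with 166 EGF-only sites, only the AP-1 intervals overlapped (3.61%, 1.67–7.66%, and 6.61%, 6.03–7.25%). Above the 75th percentile, with 7 EGF-only sites, the intervals of each share overlapped.

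**Figure D5:**
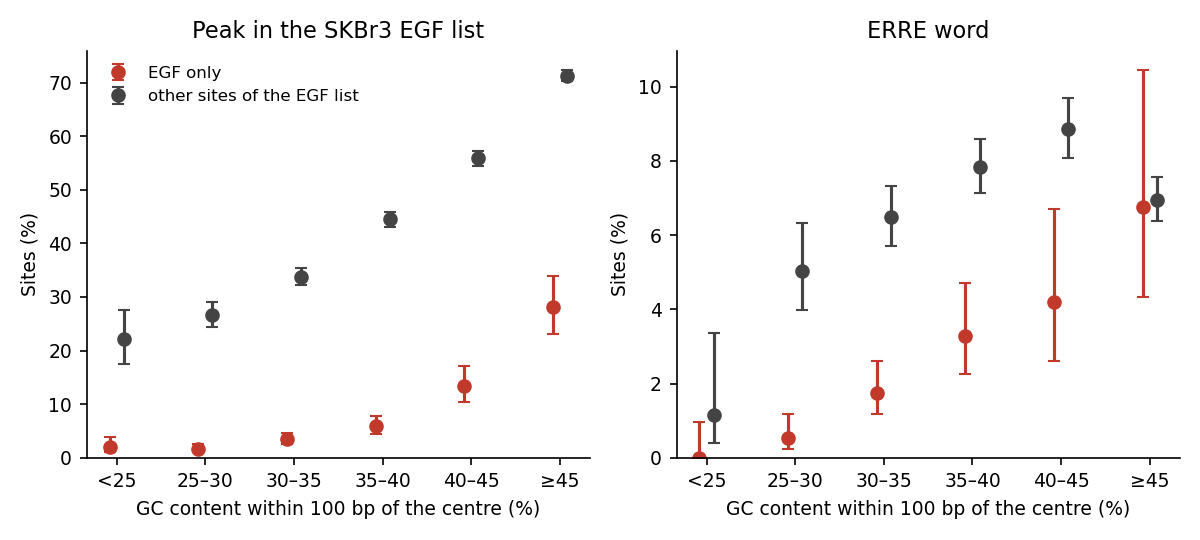
Share of sites (y axis, %) with a peak in the SKBr3 EGF list (left) and with the ERRE word (right) by GC content within 100 bp of the centre (x axis, %), for EGF-only sites and the other sites of the EGF list, with 95% Wilson intervals. EGF-only sites are lower in each GC group on the left, from 2.01% against 22.1% below 25% GC, while the ERRE shares at 45% or more are 6.77% and 6.95%.

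The 90 EGF-only sites with an ERRE were called in SKBr3 more often than the rest. A peak in the SKBr3 EGF list was at 18 of them (20%, 13.04–29.4%) and at 228 of the 4205 sites without the word (5.42%, 4.78–6.15%). Their GC content was 38.8% ± 6.65, against 33.1% ± 6.82. Their EGF scores were similar, with medians of 64.2 and 61.9. The 144 sites with AP-1 overlapped the SKBr3 EGF list in 15.3% (10.3–22.05%) and the SKBr3 vehicle list in 9.72% (5.88–15.7%). The 109 sites present in 4 or 5 SKBr3-derived lists had the ERRE in 8.26% (4.40–15.0%) and a GC content of 45.2% ± 8.998. Among the 3770 sites in none of these lists, the ERRE was at 1.56% (1.22–2.01%) and GC content was 32.4% ± 6.23. The part of GC content in these associations was not tested.

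EGF-only sites lay farther from gene starts than the other classes compared here. A start is that of any protein-coding transcript of a protein-coding gene, so a gene can have several, also inside it. Which of them is used in BT-474 was not examined. The centres of EGF-only sites were within 1 kb of a start at 50 sites (1.16%, 0.884–1.53%), against 6.81% of all BT-474 sites. The difference was −1.96 points (−2.39 to −1.50) from HRG-only sites and −6.14 points (−6.59 to −5.64) from the other EGF-list sites. The median distance to a start was 105357 bp at EGF-only sites, 54011 bp at HRG-only sites and 37658 bp at the other EGF-list sites. Outside protein-coding genes lay 60.8% (59.3–62.2%) of EGF-only and 50.7% (49.8–51.6%) of HRG-only sites. Introns held 37.04% of EGF-only sites and 47.1% of all BT-474 sites, and exons 2.19% and 3.17%. More than 1 Mb (1000 kb) from a start lay 247 EGF-only sites (5.75%), against 2.39% of all BT-474 sites.

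The 50 promoter sites had SKBr3-derived peaks more often than EGF-only sites at large, with 26 of the 50 (52.0%, 38.5–65.2%) in at least 1 SKBr3-derived list, against 12.2% (11.3–13.2%) of all EGF-only sites. Their GC content was 40.4% ± 9.77. The strongest was at UBE2V1, a ubiquitin-conjugating enzyme variant (chromosome 20, 48731462–48733896, score 337.2, 188 bp upstream of a start). It had 9 CpG dinucleotides in 201 bp and no SKBr3-derived peak, and the nearest BT-474 vehicle and HRG peaks were 2817 and 2886 bp away.

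TTR, the gene of the thyroid hormone carrier transthyretin, had a site 885 bp upstream of a transcript start (score 162.7). This site was also called on SKBr3 vehicle (88.6) and SKBr3 EGF (125.8) and in LRSKBr3 (139.3). ADIPOR1, an adiponectin receptor gene, had a site 656 bp upstream with a score of 129.2 and a peak in all 5 SKBr3-derived lists, with a score of 288.6 on SKBr3 vehicle. PGRMC2, which encodes a haem-binding membrane protein, had a score of 93.2, a vehicle peak 770 bp away and a weak SKBr3 HRG peak (50.8). The sites in introns of GPHN (116.1) and EPB41L2 (93.3) and upstream of EPGN (79.3) had no SKBr3-derived peak. Of the 8 strongest promoter sites, 4 had an SKBr3-derived peak and none held an ERRE or AP-1 word.

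EPGN encodes epigen, a ligand of EGFR, and its site was centred 58 bp upstream of a start of the gene (chromosome 4, 75173308–75174950). The 150 bases before that start are shown on the plus strand of GRCh37, since the gene belongs to the same ligand family as the treatment. They have a GC content of 42.7%.
EPGN, chr4:75174037-75174186: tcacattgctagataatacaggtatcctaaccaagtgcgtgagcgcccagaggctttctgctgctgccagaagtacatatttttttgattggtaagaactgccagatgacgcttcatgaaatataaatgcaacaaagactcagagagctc

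Of the 19794 protein-coding genes, 985 (4.98%) had an EGF-only site within 20 kb of a start, and 295 (1.49%) had one and no other BT-474 site in that range. Of the energy metabolism genes that ERRα is known for, 2 of 82 respiratory chain and ATP synthase genes (2.44%, 0.671–8.46%), 1 of 33 TCA cycle and pyruvate entry genes (3.03%, 0.537–15.3%) and 1 of 27 fatty acid oxidation genes (3.70%, 0.657–18.3%) had an EGF-only site, with intervals that contain that background. Their sites were near NDUFV2 and CYCS, near DLAT, and near CPT1A, which makes the carnitine esters that carry fatty acids into mitochondria. Each of these 4 genes had another BT-474 site in range, as did 71 of the 82 respiratory genes. The CPT1A site (chromosome 11, 68567975–68569926, score 122.3) was also called on SKBr3 HRG (125.2), in pSKBr3 (90.1) and in LRSKBr3 (130.4), while the sites near NDUFV2, CYCS and DLAT were in no SKBr3-derived list. These genes, like the others of the short lists below, were named after their values were seen, except where no other BT-474 site lay in range.

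Among signalling genes the counts were likewise small. Of 15 ERBB receptor and ligand genes, EGF and EPGN had an EGF-only site (13.3%, 3.74–37.9%), the EGF one at 8539 bp with a score of 63.4. Of 54 genes of the RAS-MAPK and PI3K relay, 4 had one (7.41%, 2.92–17.6%). Of 32 feedback inhibitors PHLPP2 had one (3.12%), and of 43 immediate early and AP-1 genes MAFF, MYC and BTG2 (6.98%, 2.40–18.6%). Each interval contains the background of 4.98%.

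Of 50 receptor tyrosine kinases outside the ERBB family, EPHA4, EPHA6, EPHA7, ROS1 and RYK had an EGF-only site (10.0%, 4.35–21.4%). EPHA6, an ephrin receptor, and RYK had no other BT-474 site in range, but the EPHA6 score of 50.3 lay at the calling threshold. Of 26 integrin genes ITGAV and ITGB8 had one (7.69%, 2.14–24.1%), the ITGB8 site with peaks on SKBr3 vehicle (61.9) and SKBr3 EGF (83.4) and in LRSKBr3 (75.6). Of 18 ERR and coregulator genes, ESRRG, which encodes ERRγ, had one (5.56%, 0.988–25.8%), in an intron (score 85.6, 19368 bp from a start), with peaks on SKBr3 vehicle (54.8) and SKBr3 EGF (97.6). None of 30 luminal breast lineage genes and none of 22 genes of the ERBB2 amplicon had an EGF-only site (upper limits 11.4% and 14.9%). In the amplicon 1 of the 22 genes had any other BT-474 site in range, against 27 of the 30 luminal genes. None of the sites of these lists held an ERRE. Each of these intervals, and the range from 0 to each upper limit, contains the 4.98% of all protein-coding genes.

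Olfactory receptor genes, which lie in large clusters of odorant receptor genes, had an EGF-only site at 46 of 391 (11.8%, 8.94–15.3%), against 4.98% of all protein-coding genes. The 46 genes shared 29 sites, so they are not 46 separate observations. Of the 391 genes, 34 (8.70%) had an EGF-only site and no other BT-474 site in range, against 1.49% of all protein-coding genes, and 93 (23.8%) had another BT-474 site, against 57.4% of all protein-coding genes. Scores of the 29 sites ran from 50.3 to 145.7, the highest near OR2M4 on chromosome 1, and 2 of the 29 were in an SKBr3-derived list. ZNF-named zinc finger genes, also clustered, stood at 18 of 512 (3.52%, 2.24–5.49%), an interval that contains the 4.98%, and of them ZNF134, ZNF157, ZNF211, ZNF354C and ZNF605 had no other BT-474 site in range.

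EGF-only sites were unevenly spread over the chromosomes. They made up 24.0% (21.9–26.1%) of the EGF-list sites on chromosome 8, 23.6% (21.7–25.5%) on chromosome 7 and 21.2% (18.5–24.1%) on chromosome 18, and 4.56% (2.74–7.51%) on chromosome 22 and 5.49% (3.72–8.04%) on chromosome 19. The mean GC content of all BT-474 sites was 38.4% on chromosome 8, 38.7% on chromosome 7 and 38.4% on chromosome 18, and 47.2% on chromosome 22 and 49.8% on chromosome 19. Chromosome 4, with the lowest mean GC content of all (37.1%), had a share of 18.7% (16.7–20.7%). The part of GC content in these shares was not tested, and the copy number and read depth of the chromosomes were not analysed here.

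On a finer scale, 1806 windows of 1 Mb held an EGF-only site, with a median of 2 sites per window and 187 windows holding 5 or more. The 5 windows with the most were 4 on chromosome 8 and 1 on chromosome 3. The window from 165 to 166 Mb of chromosome 3 held 13 EGF-only sites among 35 BT-474 sites, and its only protein-coding gene is BCHE, which encodes butyrylcholinesterase. On chromosome 8, the windows from 88 to 89 Mb, 112 to 113 Mb and 114 to 115 Mb held 13 each, and that from 115 to 116 Mb held 12 among 33 sites. The window at 114 Mb contains part of CSMD3, that at 88 Mb CNBD1 and DCAF4L2, and those at 112 and 115 Mb contain no protein-coding gene. The mean GC content of the BT-474 sites in these 5 windows was between 29.1% and 33.0%.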

How the data were processed

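ERRα was profiled by ChIP-seq in BT-474, SKBr3, pSKBr3 and LRSKBr3 cells, with 1 ChIP library per BT-474 list and 2 pooled per SKBr3-derived list. The authors aligned reads to hg19 with BWA 0.5.9 and SAMtools 0.1.18, and called peaks with MACS 1.4.1 (mfold 10 and 30, bandwidth 300, P cutoff 1e-05). The deposited values are the authors' peak scores, −10 log10 of the P-value, used only within a list because they depend on depth. All 8 lists were used, with 0 columns from samples outside the series, and no peak passes the end of a GRCh37 chromosome.

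Here, BT-474 peaks were merged by an overlap of 1 bp. GC content and words were read from GRCh37 within 100 bp of the centre of the EGF peak (elsewhere of the strongest EGF, HRG or vehicle peak, in that order), and from flanks 2 kb away. Genes are the 19794 protein-coding genes of GENCODE v44 lifted to GRCh37, with promoters within 1 kb and range within 20 kb of a start. Starts are those of all their protein-coding transcripts. The deposited lists hold no counts, so depth and its precision are unknown.

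The members, the 14 gene lists and the words were chosen with earlier results of these data known. Sites named are the 8 strongest, the 8 strongest at promoters, the 8 strongest also EGF-only in SKBr3, 6 with ERRE, 4 with AP-1 (both off chromosomes 8 and Y), the 5 windows with most members, and listed genes without another site. Results for some of these are not reported here. Alternatives concerned the P threshold, overlap, list size, windows, words and distances. Strata and profiles by GC content and distance were added after seeing the data. Merging, word search and gene assignment were tested on simulated data. The tools were Python 3.11.15 with statsmodels 0.14.6, pandas 2.3.3, numpy 2.4.6, matplotlib 3.10.9 and scipy 1.17.1.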

Additional observations from a re-analysis of the deposited data

How the results depend on the processing

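The number of EGF-only sites depends most on the P threshold. It was 1231 with P at most 1e-08 in all 3 BT-474 lists, 723 with P at most 1e-10, and 362 where only EGF peaks had to reach 1e-10. These 362 sites overlapped the SKBr3 EGF list in 8.84% and held the ERRE in 1.10% and AP-1 in 2.76%. The number stayed between 4064 and 5694 under the other overlap rules and in lists of equal size. With centres within 500 bp counted as shared, 3.77% matched the SKBr3 EGF list. Windows of 50 and 250 bp, which search less or more sequence, gave 1.07% and 4.49% for the ERRE and 1.70% and 7.15% for AP-1, and the shorter ERRE word 8.13%. Promoter limits of 500 bp and 5 kb gave 0.605% and 6.78%, and a range of 10 kb left 555 genes. Mean GC content stayed between 33.0% and 34.3%.

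The other EGF-list sites, measured in the same way, had an SKBr3 EGF peak in 59.6% where their EGF peak had P at most 1e-10 and in 43.0% by centres within 500 bp. They held the ERRE in 7.61% where the EGF peak had P at most 1e-10, in 4.05% and 12.1% of the 50 and 250 bp windows and in 24.98% for the shorter word, and AP-1 in 3.50% and 14.7% of these windows. No paired analysis was possible because each BT-474 list rests on 1 ChIP library. The spread between cultures, the read depth and the signal below the calling threshold in the vehicle and HRG libraries are unknown, so an absent call does not show that binding was absent.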
